A study of Homo sapiens with 18 samples.

Results

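The NRF2 antioxidant program was followed in MCF-10A cells, a non-malignant human mammary epithelial line, after depletion of 1 of 5 nucleotide excision repair (NER) genes. It was taken as 32 genes chosen by name: NFE2L2, which encodes NRF2, its inhibitor KEAP1, and 30 antioxidant, NADPH and detoxification genes known as NRF2 targets. All 32 were among the 22031 genes of the table, and all 32 were among the 16382 genes tested. The NER-deficient (dNER) lines carried an shRNA against XPA (shXPA), XPC (shXPC), ERCC4 (shERCC4), ERCC5 (shERCC5) or ERCC6 (shERCC6), and the control line (shCTRL, labelled shCON) a non-target shRNA. Each shRNA was delivered by lentivirus and its line was grown out from colonies that survived puromycin, and the labels give no other treatment. There was 1 shRNA clone per gene and 1 control line, so a change seen in 1 dNER line cannot be told apart from an effect of that shRNA or of the cells that grew out, and a difference shared by all 5 lines cannot be told apart from a trait of the single shCTRL line. The 18 libraries were made from rRNA-depleted RNA, 3 per line, from independent biological replicates. Values are TPM, a gene's share of the transcripts of a library on a fixed total, corrected for transcript length, so levels may be compared between genes.

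NRF2 is a transcription factor held low by KEAP1, an adaptor that hands it to the CUL3 ubiquitin ligase for degradation. Electrophiles and oxidants modify cysteines of KEAP1, NRF2 then escapes degradation, enters the nucleus, pairs with a small MAF protein and binds antioxidant response elements (ARE) near its targets. The targets make glutathione and thioredoxin systems, supply NADPH, reduce quinones and carbonyls, break down heme, store iron and export conjugates. Since NRF2 is controlled mainly as a protein, its mRNA is a poor measure of its activity, and no protein was measured here.

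The ARE core was searched in RefSeq promoter windows (GRCh38.p14, 250 bases before to 50 after a start) as TGACNNNGC on both strands, where N is any base. Windows were available for 23 of the 32 genes (29 windows), and those of SLC7A11, GSR, PRDX1, AKR1B10, CBR3, HMOX1, FTH1, ABCC3 and TRIM16L were not examined here. Of the 29 windows 10, from 9 genes, held a match (34.5%), against 13.3% of all 35116 windows. The AP-1 motif TGACTCA, which can overlap the ARE core, lay in 3 of the 29 windows (10.3%) and in 4.95% of all windows. The matched bases of 5 genes are shown, 3 (GCLM, TXNRD1 and ME1) because their mRNA was lower in all 5 dNER lines and 2 (GPX2 and CBR1) because theirs was not, though their windows hold a match too. Each is written on the strand of its gene with the match in capitals, which reads TGACNNNGC, or GCNNNGTCA where it lies on the opposite strand. TXNRD1 has a match before each of a pair of starts. A further TXNRD1 match, from 8 bases before the first start, and a further ME1 match, from 11 bases after the start, are not shown. Matches in PGD, EPHX1, KEAP1 and PIR, genes that were also not lower in all 5 lines, are not shown either.
GCLM (chr1:93909446-93909474, minus strand, 34 bases before the start): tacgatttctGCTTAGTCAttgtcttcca
TXNRD1 first start (chr12:104215670-104215698, plus strand, 99 bases before the start): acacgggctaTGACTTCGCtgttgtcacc
TXNRD1 second start (chr12:104286920-104286948, plus strand, 102 bases before the start): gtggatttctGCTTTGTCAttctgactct
ME1 (chr6:83431170-83431198, minus strand, 137 bases before the start): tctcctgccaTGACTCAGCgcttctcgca
GPX2 (chr14:64942849-64942877, minus strand, 122 bases before the start): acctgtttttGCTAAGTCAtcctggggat
CBR1 (chr21:36069855-36069883, plus strand, 159 bases before the start): tgcgggttctGCAAAGTCAggctagctgg
In ME1 the ARE core overlaps an AP-1 motif. Among genes lower in all 5 lines, 4 of 12 windows (33.3%), from 3 of the 11 genes with a window, held the core. A match names these letters alone, and NRF2 binding was not measured.

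Each dNER line had a lower level of its targeted gene than shCTRL in all 3 libraries, with means from 40.8% (ERCC4) to 67.6% (XPA) of the shCTRL mean. Libraries summed to between 999214 and 999484 TPM. Library make-up differed, since 26.5% of the TPM of shERCC4 replicate 1 went to CTD-2328D6.1, an entry with a clone name. That entry took 4.39% to 7.58% in the other dNER libraries and 3.44% to 3.95% in shCTRL libraries. The median gene had a log2 fold change of -0.33 between the mean of the 5 dNER lines and shCTRL, and of 0.00 after median-of-ratios scaling. Changes are therefore read against that shift, and calls against shCTRL that were lost or gained with that scaling are given gene by gene. TP63, KRT14 and KRT5, markers of basal mammary epithelium, were expressed in every library, and the estrogen receptor gene ESR1 was below 1 TPM in every group mean. Of the markers listed for mammary epithelium 4 of 8 were higher (KRT14, TP63, EPCAM and KRT5) and 1 (KRT17, not called with median-of-ratios scaling) was lower in the mean of the 5 dNER lines, where 7.84% of all genes were higher and 28.6% lower. Of leukocyte, endothelial and fibroblast markers 5 passed the filter on low values, and 2 of these 5, CD68 (log2 fold change -1.04) and DCN (-1.10), were lower. LUM and VWF stayed at or under 1.00 TPM in every library. Summed over 3 leukocyte markers, libraries ran from 28.1 to 40.3 TPM in shXPA and from 10.7 to 21.8 in the other 4 dNER lines, against 30.1 to 40.9 in shCTRL. The 2 endothelial markers summed to between 2.14 and 8.99 TPM in dNER libraries, against 3.45 to 5.60 in shCTRL. The 3 fibroblast markers, nearly all DCN, summed to between 69.6 and 166 TPM in dNER libraries, against 204 to 217 in shCTRL. The part of these shifts in the results below was not tested.

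Most of the NRF2 targets stood lower in dNER cells than in shCTRL. Calls needed both a q below 0.05 (limma on log2(TPM + 0.5), Storey's method over the 16382 genes) and a fitted fold above 1.5. In the mean of the 5 dNER lines 22 of the 32 genes were lower, where 28.6% of all genes tested were. Only ABCC2 and AKR1B10 were higher, where 7.84% of all genes were, and 8 genes were not called. The median log2 fold change of the 32 genes was -1.02, against -0.33 over all genes. With median-of-ratios scaling 17 were lower and 3 higher, where 12.2% and 13.6% of all genes were, and the median was -0.66 for the 32 genes and 0.00 for all genes. Of the 32 genes 23 had all 15 dNER libraries below all 3 shCTRL libraries, where 24.5% of all genes did, and 1 had all above, where 2.81% did.

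The fall was seen in each line taken alone. In shXPA 22 genes were lower and 3 higher, where 30.9% and 11.9% of all genes were. In shXPC 25 were lower and 2 higher (38.0% and 9.89% of all genes), and in shERCC4 23 were lower and 1 higher (30.9% and 4.38%). In shERCC5 22 were lower and 3 higher (28.3% and 9.97%), and in shERCC6 18 were lower and 2 higher (19.7% and 6.52%). With median-of-ratios scaling 17 were lower and 4 higher in shXPA (17.3% and 18.4% of all genes), 17 and 3 in shXPC (16.2% and 18.2%), 19 and 2 in shERCC4 (10.5% and 10.2%), 17 and 3 in shERCC5 (13.1% and 16.1%), and 14 and 3 in shERCC6 (9.76% and 11.1%). The median log2 fold change of the 32 genes was -1.23 in shXPA, -1.20 in shXPC, -1.22 in shERCC4, -1.0 in shERCC5 and -0.73 in shERCC6, each below the median of all genes in that line, which lay between -0.42 and -0.24. Of the 32 genes 16 were lower in all 5 lines, where 9.53% of all genes were, and 12 of these 16 stayed lower in all 5 with median-of-ratios scaling, where 3.49% of all genes were. The 12 were GCLM, SLC7A11, TXNRD1, SRXN1, NQO1, AKR1C2, CBR3, HMOX1, FTL, ABCC3, OSGIN1 and TRIM16L, and the other 4 were GCLC, TALDO1, ME1 and TRIM16. AKR1B10 alone was higher in all 5 lines, where 2.01% of all genes were, and was joined by ABCC2 with median-of-ratios scaling, where 4.33% were. The 5 comparisons share the 3 shCTRL libraries, so these counts are not independent of each other. In bulk RNA, fewer cells expressing a gene and less RNA of it per cell cannot be told apart.

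**Figure D1:**
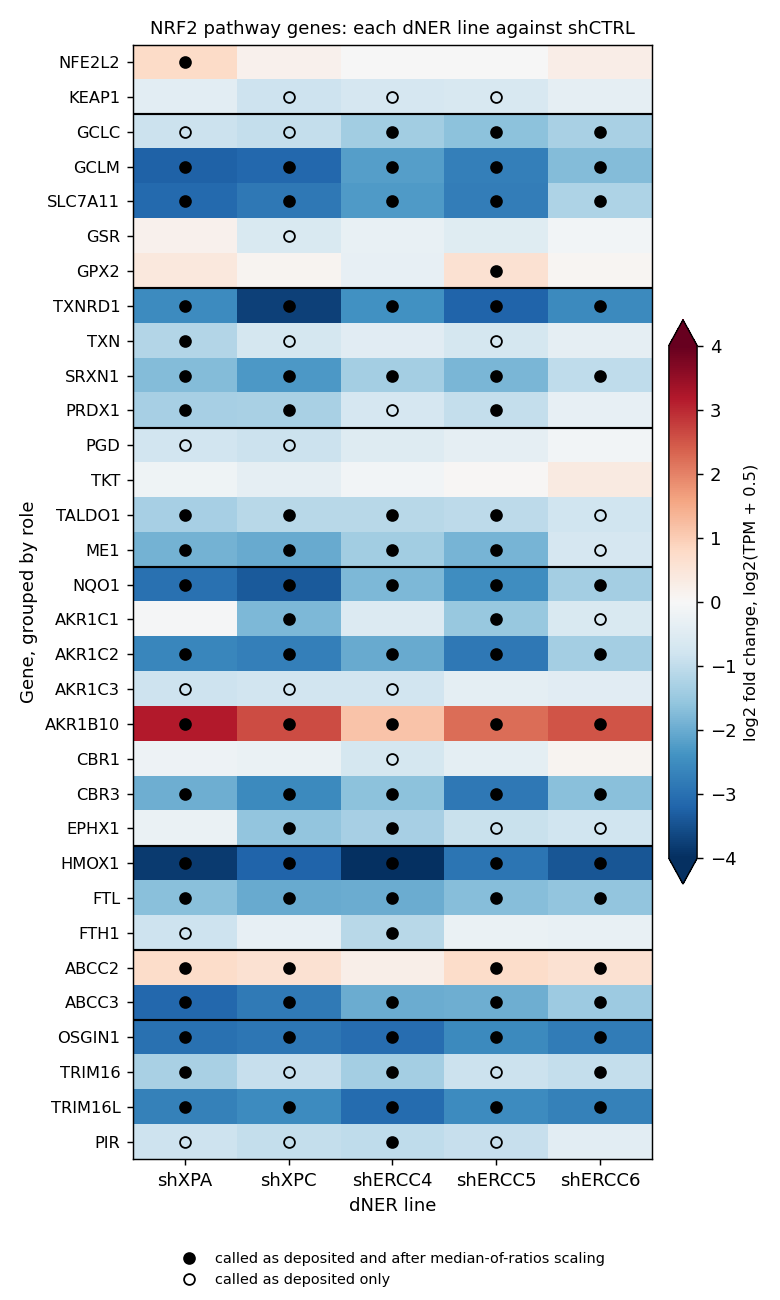
Log2 fold change of each of the 32 genes (rows, by role) in each dNER line against shCTRL, on log2(TPM + 0.5), with colour for its size. A filled dot marks a call as deposited and after median-of-ratios scaling, and an open dot a call as deposited only. HMOX1, TXNRD1, OSGIN1, TRIM16L and GCLM carry the deepest falls in the mean of the lines (-3.47 to -2.61), AKR1B10 is the gene with the largest rise (2.33), and TKT has no dot.

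**Figure D2:**
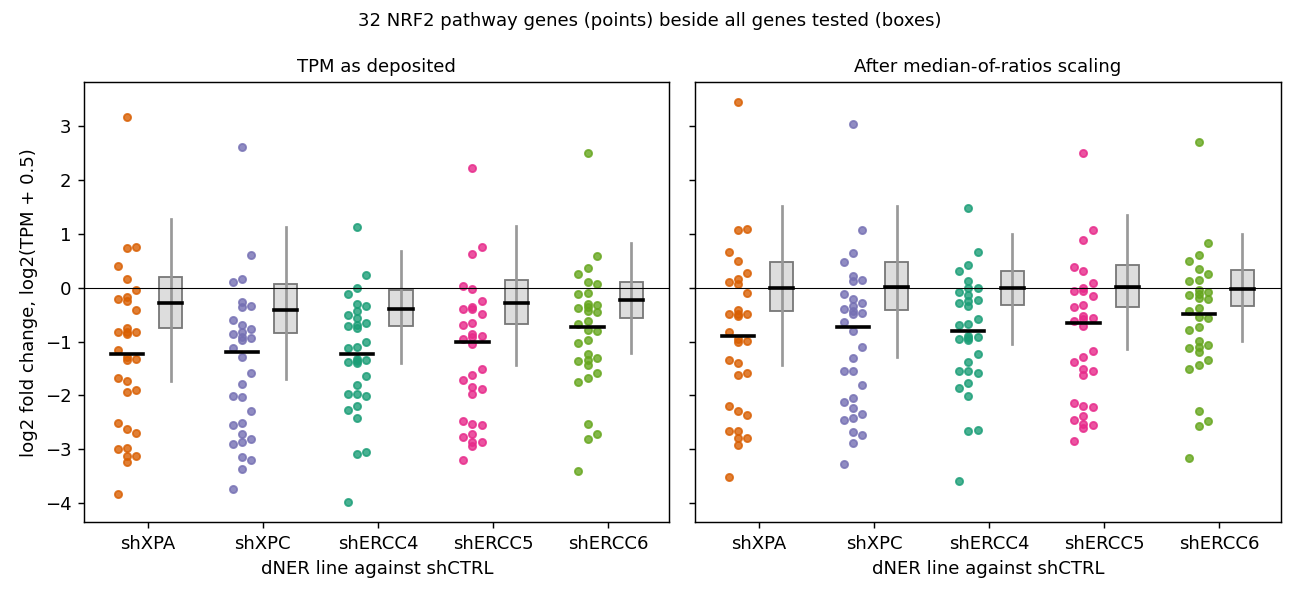
Log2 fold change against shCTRL of the 32 genes (points) in each dNER line, beside all 16382 genes tested (grey boxes from the 25th to the 75th percentile, whiskers from the 5th to the 95th), with TPM as deposited on the left and after median-of-ratios scaling on the right and black bars at the medians. As deposited, the medians of the 32 genes, from -1.23 in shXPA to -0.73 in shERCC6, lie below the medians of all genes, from -0.42 in shXPC to -0.24 in shERCC6.

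NFE2L2 and KEAP1 mRNA had smaller fitted changes than most of the targets. NFE2L2 had 156, 148 and 133 TPM in shXPA, 88.4, 107 and 92.4 TPM in shXPC, 63.2, 86.7 and 112 TPM in shERCC4, 82.1, 82.2 and 88.7 TPM in shERCC5 and 107, 101 and 96.7 TPM in shERCC6, against 85.0, 89.6 and 81.5 TPM in shCTRL. Only shXPA libraries lay well above the control, with shERCC6 just above it and the other lines overlapping it. NFE2L2 rose in shXPA, with a log2 fold change of 0.77 (SE 0.146, q = 9.22e-05), and in the mean of the 5 lines it had 0.23 (SE 0.113, q = 0.0264), under the fold threshold as deposited but called higher with median-of-ratios scaling (0.59), where it was also called higher in shXPC (0.64, against 0.16 as deposited). In shERCC4 its sign depended on the scaling, at -0.0057 as deposited and 0.42 after median-of-ratios scaling, and in shERCC5 the 2 values were -0.018 and 0.32. KEAP1 had 41.8, 38.7 and 47.2 TPM in shXPA, 30.9, 33.8 and 31.6 TPM in shXPC, 30.0, 43.6 and 35.6 TPM in shERCC4, 37.5, 33.4 and 37.4 TPM in shERCC5 and 41.2, 45.4 and 45.5 TPM in shERCC6, against 52.8, 56.8 and 61.7 TPM in shCTRL. All 15 dNER libraries were below all 3 shCTRL libraries. KEAP1 fell in shXPC (-0.82), shERCC4 (-0.66) and shERCC5 (-0.65), and its change in the mean of the lines, -0.58 (SE 0.0926, q = 1.29e-05), lay just under the fold threshold. No KEAP1 call was left with median-of-ratios scaling, where the mean of the lines gave -0.22, beside 0.00 for the median gene. The KEAP1 call in shERCC4 was lost without shERCC4 replicate 1 (-0.53), and the mean of the lines passed the fold threshold (-0.64 to -0.59) when any of 9 libraries was left out. NFE2L2 (chromosome 2, 177227595 to 177392697, minus strand, GENCODE 29 on GRCh38) shares exon sequence with AGPS on the other strand and with AC019080.1 on its own. Whether strand was used in quantification is not given in the sources used here, so reads of these genes may have been split between them.

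**Figure D3:**
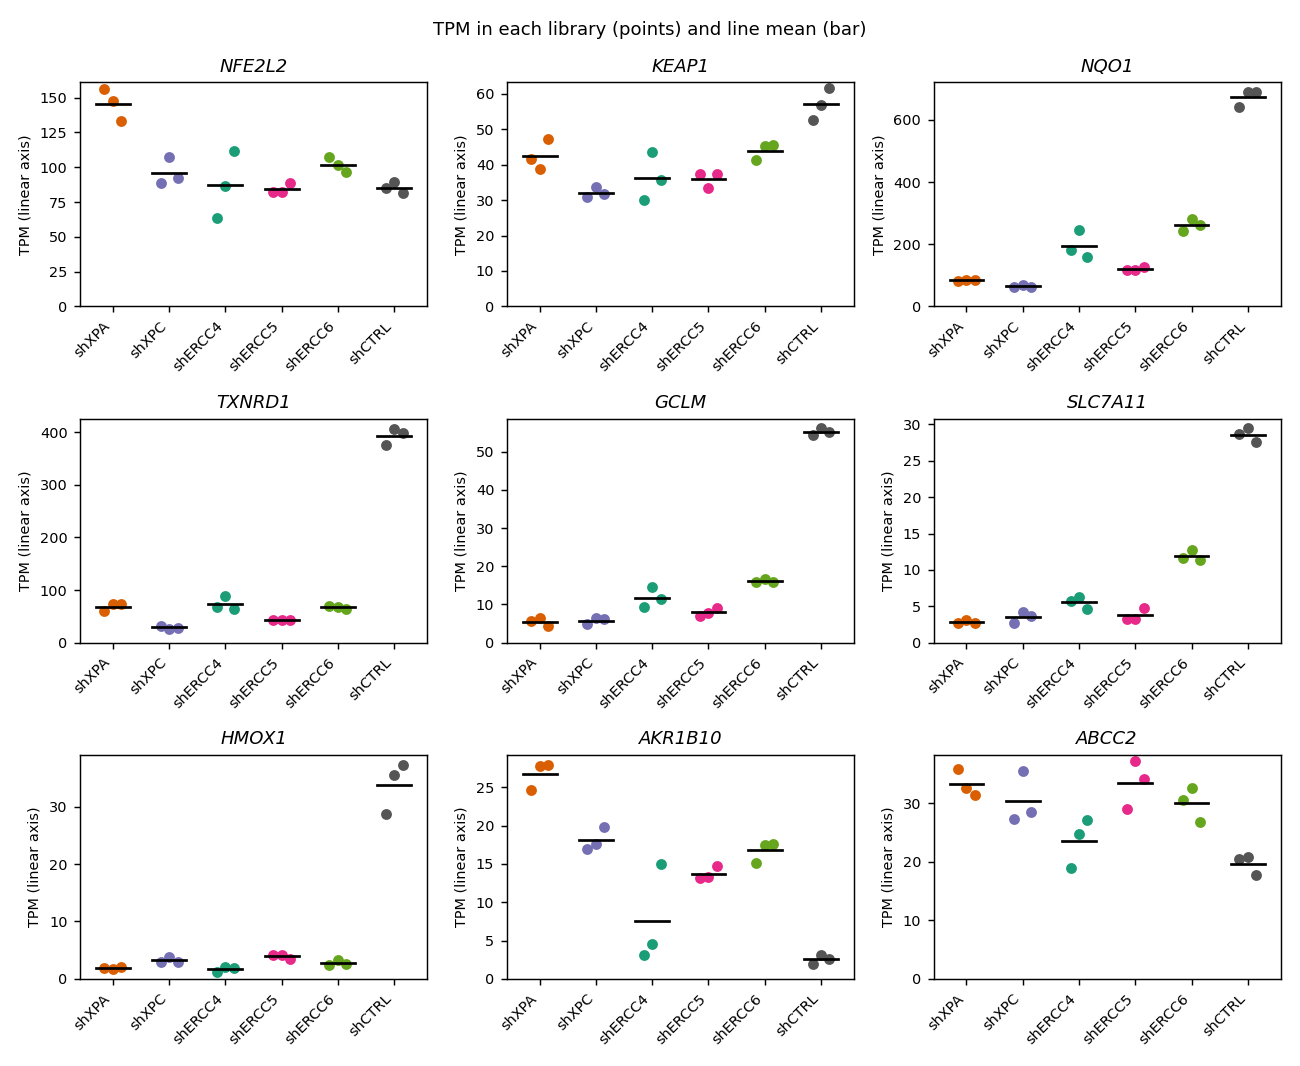
TPM of 9 of the 32 genes in each of the 18 libraries (points, linear axis from 0), dNER lines left of shCTRL, with a black bar at each line's mean (n = 3). NQO1 and HMOX1 lie far below shCTRL in all 15 dNER libraries, AKR1B10 lies above it, and NFE2L2 is highest in shXPA (133 to 156 TPM).

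GCLM, GCLC and SLC7A11 fell in all 5 lines, while GSR and GPX2, which recycle and spend glutathione, were not called in the mean of the lines. GSS (-0.52), glutathione synthetase, and SLC3A2 (-0.27), the partner chain of SLC7A11, which are outside the 32 genes and were named after their values were seen, were under the fold threshold in that mean. GCLM, the modifier subunit of glutamate-cysteine ligase, the rate-limiting enzyme of glutathione synthesis, fell to between 9.88% of the shCTRL mean in shXPA and 29.2% in shERCC6. GCLM had 5.70, 6.42 and 4.25 TPM in shXPA, 4.79, 6.34 and 6.28 TPM in shXPC, 9.43, 14.5 and 11.5 TPM in shERCC4, 7.06, 7.85 and 9.07 TPM in shERCC5 and 15.9, 16.6 and 15.9 TPM in shERCC6, against 54.4, 56.1 and 55.2 TPM in shCTRL. The highest dNER library, at 16.6 TPM, was far below the lowest shCTRL library. Its log2 fold change in the mean of the lines was -2.61 (SE 0.126, q = 3.15e-11), and it ran from -3.24 in shXPA to -1.75 in shERCC6. GCLC, the catalytic subunit of the same enzyme, had a smaller fitted change. GCLC had 61.4, 65.7 and 61.1 TPM in shXPA, 56.0, 66.5 and 55.2 TPM in shXPC, 41.9, 44.9 and 41.9 TPM in shERCC4, 35.4, 41.0 and 33.2 TPM in shERCC5 and 42.2, 49.2 and 46.3 TPM in shERCC6, against 104, 124 and 113 TPM in shCTRL. GCLC did not overlap between dNER and shCTRL libraries, with -1.22 (SE 0.0792, q = 7.92e-10) in the mean of the lines, and with median-of-ratios scaling it stayed lower in 3 of the 5 lines. SLC7A11 is the cystine and glutamate exchanger that brings in cystine for glutathione. SLC7A11 had 2.75, 3.09 and 2.69 TPM in shXPA, 2.68, 4.19 and 3.69 TPM in shXPC, 5.77, 6.34 and 4.59 TPM in shERCC4, 3.31, 3.24 and 4.80 TPM in shERCC5 and 11.6, 12.8 and 11.3 TPM in shERCC6, against 28.7, 29.5 and 27.5 TPM in shCTRL. Its means lay between 9.95% of the shCTRL mean in shXPA and 41.7% in shERCC6, and shERCC6 lay above every other dNER line. The log2 fold change was -2.45 (SE 0.13, q = 8.44e-11) in the mean of the lines. GSR, glutathione reductase, averaged 94.9 ± 9.60 TPM in shXPA and 55.5 ± 7.02 in shXPC, against 83.9 ± 2.47 in shCTRL (SD, n = 3 each), and was called only in shXPC (-0.60). That GSR call was lost without shXPC replicate 3 (-0.51), without shCTRL replicate 1 (-0.58) and with median-of-ratios scaling, and the mean of the lines for GSR was -0.27 as deposited and 0.10 with that scaling. GPX2 is a glutathione peroxidase of epithelia. GPX2 had 2.08, 2.67 and 2.93 TPM in shXPA, 1.40, 2.38 and 2.18 TPM in shXPC, 1.89, 1.31 and 0.861 TPM in shERCC4, 2.62, 2.79 and 3.76 TPM in shERCC5 and 1.37, 3.27 and 1.48 TPM in shERCC6, against 1.36, 1.85 and 2.22 TPM in shCTRL. The shERCC5 libraries were all above the shCTRL libraries and those of the other lines overlapped them, and the only call was a rise in shERCC5, with 0.62 (SE 0.289, q = 0.0289), which was lost without shERCC5 replicate 3 (0.49) or shCTRL replicate 1 (0.48). With median-of-ratios scaling GPX2 was also higher in shXPA (0.67).

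All 4 thioredoxin genes fell in the mean of the lines. TXNRD1, thioredoxin reductase, which passes electrons of NADPH to thioredoxin, was among the most reduced of the 32 genes. TXNRD1 had 59.4, 73.1 and 72.7 TPM in shXPA, 32.5, 26.0 and 28.3 TPM in shXPC, 67.9, 88.6 and 63.6 TPM in shERCC4, 42.3, 42.5 and 42.9 TPM in shERCC5 and 70.3, 68.3 and 64.3 TPM in shERCC6, against 375, 407 and 399 TPM in shCTRL. No dNER library was above 88.6 TPM and no shCTRL library below 375. The log2 fold change was -2.89 (SE 0.0917, q = 4.26e-13), from -3.75 in shXPC to -2.43 in shERCC4. SRXN1, sulfiredoxin, which repairs over-oxidized peroxiredoxins, was lower in every line. SRXN1 had 28.6, 29.9 and 32.2 TPM in shXPA, 19.2, 22.3 and 20.2 TPM in shXPC, 33.2, 45.3 and 41.7 TPM in shERCC4, 27.4, 28.9 and 27.7 TPM in shERCC5 and 47.9, 51.7 and 49.8 TPM in shERCC6, against 96.7, 103 and 105 TPM in shCTRL. The SRXN1 calls held under both scalings, with -1.65 (SE 0.0806, q = 3.79e-11) in the mean. PRDX1 encodes an abundant peroxiredoxin. PRDX1 had 344, 344 and 377 TPM in shXPA, 348, 393 and 369 TPM in shXPC, 498, 652 and 540.0 TPM in shERCC4, 457, 475 and 459 TPM in shERCC5 and 748, 707 and 698 TPM in shERCC6, against 833, 934 and 935 TPM in shCTRL. All dNER libraries were lower than all shCTRL libraries, with -0.92 (SE 0.0748, q = 9.77e-09), and it was called in all lines but shERCC6 (-0.33). The gap in shERCC6 was the smallest. TXN, thioredoxin itself, changed least of the group. TXN had 298, 289.5 and 283 TPM in shXPA, 394, 411 and 399.8 TPM in shXPC, 409.7, 577 and 462 TPM in shERCC4, 407, 382 and 414 TPM in shERCC5 and 503, 521 and 497 TPM in shERCC6, against 649, 645 and 654 TPM in shCTRL. TXN was lower in shXPA, shXPC and shERCC5, with -0.67 (SE 0.0759, q = 3.69e-07) in the mean of the lines. With median-of-ratios scaling neither PRDX1 (-0.55) nor TXN (-0.31) was called in the mean of the lines, TXN was called in shXPA alone, and PRDX1 was also lost in shERCC4 (-0.26). PRDX1 shares exon sequence with MMACHC on the opposite strand.

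Of 4 genes of NADPH supply or the pentose phosphate pathway, ME1 and TALDO1 were lower in all 5 lines. ME1, cytosolic malic enzyme, makes NADPH from malate. ME1 had 11.5, 11.9 and 11.02 TPM in shXPA, 10.4, 12.1 and 9.29 TPM in shXPC, 14.8, 19.0 and 16.6 TPM in shERCC4, 10.8, 11.1 and 13.3 TPM in shERCC5 and 29.7, 27.5 and 25.5 TPM in shERCC6, against 45.1, 46.0 and 42.0 TPM in shCTRL. No dNER library was above 29.7 TPM and no shCTRL library below 42.0. Its log2 fold change was -1.57 (SE 0.0935, q = 2.96e-10), from -2.02 in shXPC to -0.68 in shERCC6. TALDO1, transaldolase of the non-oxidative pentose phosphate pathway, was between 39.9% of the shCTRL mean in shXPA and 58.1% in shERCC6. TALDO1 had 104, 105 and 100.1 TPM in shXPA, 117, 122 and 116 TPM in shXPC, 101, 146 and 113 TPM in shERCC4, 116, 124 and 135 TPM in shERCC5 and 147, 154 and 149 TPM in shERCC6, against 258, 255 and 260.3 TPM in shCTRL. The change in the mean of the lines was -1.08 (SE 0.0809, q = 4.07e-09). With median-of-ratios scaling neither ME1 (-0.44) nor TALDO1 (-0.54) was called in shERCC6. PGD, 6-phosphogluconate dehydrogenase, which makes NADPH in the oxidative branch, averaged 109 ± 2.93 TPM in shXPA and 101 ± 6.29 in shXPC, where it fell, against 184 ± 7.24 in shCTRL (SD, n = 3 each). Neither PGD call held with median-of-ratios scaling, and in shERCC4 it passed the threshold when replicate 2 of that line was left out (-0.59). TKT, transketolase, was the 1 gene of the 32 not called in any line, with log2 fold changes of -0.17 in shXPA, -0.35 in shXPC, -0.11 in shERCC4, 0.039 in shERCC5 and 0.37 in shERCC6. With median-of-ratios scaling the mean of the lines for TKT turned to 0.32, and it was higher in shERCC6.

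NQO1, the quinone reductase used as a standard readout of NRF2 activity, fell to between 9.60% of the shCTRL mean in shXPC and 39.0% in shERCC6. NQO1 had 82.8, 85.2 and 85.5 TPM in shXPA, 62.7, 67.6 and 63.5 TPM in shXPC, 179.9, 245 and 160.4 TPM in shERCC4, 117, 116 and 127 TPM in shERCC5 and 244, 283 and 262 TPM in shERCC6, against 642, 688 and 689 TPM in shCTRL. The highest dNER library, at 283 TPM, lay well below the lowest shCTRL library, and within the dNER lines shERCC6 and shERCC4 were above shERCC5, shXPA and shXPC. The log2 fold change was -2.40 (SE 0.0905, q = 2.53e-12), from -3.37 in shXPC to -1.36 in shERCC6. NQO1 lies on chromosome 16 (69706996 to 69726951, minus strand). CBR3, a carbonyl reductase of lower level, was also lower in every line. CBR3 had 2.67, 3.04 and 2.91 TPM in shXPA, 1.60, 1.52 and 2.03 TPM in shXPC, 4.66, 4.41 and 2.32 TPM in shERCC4, 2.05, 1.22 and 0.792 TPM in shERCC5 and 2.68, 3.55 and 4.71 TPM in shERCC6, against 12.7, 12.4 and 12.4 TPM in shCTRL. The highest dNER library of CBR3 had 4.71 TPM and the lowest shCTRL library 12.4, with -2.14 (SE 0.201, q = 4.63e-08). CBR1, its neighbour and paralog, averaged 64.5 ± 14.4 TPM in shERCC4 and 113 ± 21.5 in shERCC6, against 104 ± 14.3 in shCTRL (SD, n = 3 each). CBR1 was called only in shERCC4 (-0.70), a call lost without replicate 1 of that line (-0.55) and with median-of-ratios scaling, where the mean of the lines turned to 0.069 for CBR1. EPHX1, microsomal epoxide hydrolase, was lower in all lines but shXPA. EPHX1 had 174, 191 and 184 TPM in shXPA, 73.4, 75.5 and 69.5 TPM in shXPC, 74.8, 88.9 and 98.1 TPM in shERCC4, 113, 121 and 116 TPM in shERCC5 and 128, 120.2 and 127 TPM in shERCC6, against 236, 204 and 217 TPM in shCTRL. The shXPA libraries lay closest to the control, and the log2 fold change was -0.26 in shXPA and -1.58 in shXPC. In the mean of the lines EPHX1 had -0.97 (SE 0.0726, q = 3.77e-09). With median-of-ratios scaling EPHX1 was called only in shXPC and shERCC4, and not in shERCC5 (-0.56) or shERCC6 (-0.56). EPHX1 shares exon sequence with TMEM63A, and CBR1 with AP000688.1, each on the opposite strand.

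The 3 AKR1C genes, adjacent reductases of steroids and carbonyls on chromosome 10 (4963253 to 5107686), were called in different sets of lines. AKR1C2 had 99.8, 104 and 111 TPM in shXPA, 96.0, 98.2 and 98.5 TPM in shXPC, 149, 204 and 135 TPM in shERCC4, 90.8, 81.1 and 91.1 TPM in shERCC5 and 253, 256 and 251 TPM in shERCC6, against 613, 655 and 669 TPM in shCTRL. AKR1C2 was lower in all 5 lines, with -2.31 (SE 0.0883, q = 2.55e-12) in the mean of the lines. AKR1C1 had 259.9, 249 and 247 TPM in shXPA, 71.0, 79.8 and 75.5 TPM in shXPC, 146, 197 and 193 TPM in shERCC4, 88.2, 84.8 and 99.5 TPM in shERCC5 and 174, 171 and 166 TPM in shERCC6, against 273, 262 and 248 TPM in shCTRL. AKR1C1 was at the control level in shXPA and lowest in shXPC. Its log2 fold changes were -0.05 in shXPA, -1.78 in shXPC, -0.56 in shERCC4, -1.52 in shERCC5 and -0.61 in shERCC6, called in shXPC, shERCC5 and shERCC6. The call of AKR1C1 in shERCC6 was lost without shCTRL replicate 1 (-0.58) and with median-of-ratios scaling (-0.37), and in shERCC4 a call appeared without shERCC4 replicate 2 (-0.63), shERCC4 replicate 3 (-0.62) or shCTRL replicate 3 (-0.59). AKR1C3 averaged 94.4 ± 3.58 TPM in shXPA, 98.8 ± 8.29 in shXPC, 99.7 ± 16.6 in shERCC4, 127 ± 4.50 in shERCC5 and 122 ± 2.68 in shERCC6, against 167 ± 4.04 in shCTRL (SD, n = 3 each). AKR1C3 was called in shXPA, shXPC and shERCC4, and in no line with median-of-ratios scaling. With that scaling neither AKR1C1 (-0.54, against -0.90 as deposited) nor AKR1C3 (-0.27, against -0.64) was called in the mean of the lines. These genes are close copies, and short reads may be divided between them in error, so their sum was also taken. The sum was 451 ± 5.57 TPM in shXPA, 272 ± 13.4 in shXPC, 441 ± 68.9 in shERCC4, 306 ± 16.0 in shERCC5 and 546 ± 2.93 in shERCC6, against 1074 ± 21.8 in shCTRL (SD, n = 3 each). AKR1C1 held 55.8% of that sum in shXPA and 27.7% to 40.6% in the other dNER lines, against 24.3% in shCTRL. The sum was lower in all dNER libraries, while the split between copies rests on how the reads were assigned.

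**Figure D4:**
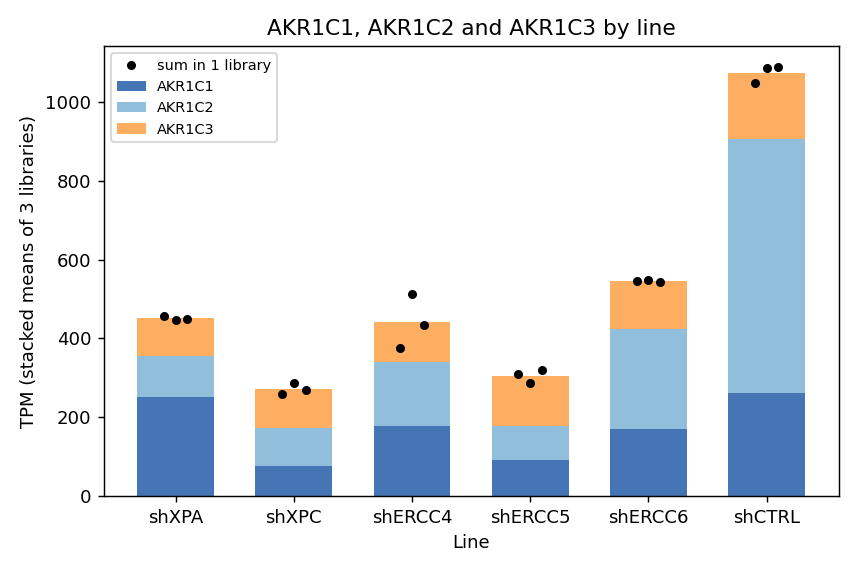
TPM of AKR1C1, AKR1C2 and AKR1C3, stacked as line means (n = 3), with the summed TPM of each library as points. The sums of the dNER lines, 272 to 546 TPM in the mean, lie below the 1074 TPM of shCTRL, and AKR1C1 takes 55.8% of the sum in shXPA and 24.3% in shCTRL.

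AKR1B10, a reductase of retinal and lipid aldehydes that is a strong NRF2 target in other epithelial lines, moved the other way from most of the program. AKR1B10 had 24.6, 27.8 and 27.9 TPM in shXPA, 16.9, 17.7 and 19.8 TPM in shXPC, 3.16, 4.57 and 15.01 TPM in shERCC4, 13.2, 13.2 and 14.7 TPM in shERCC5 and 15.1, 17.5 and 17.7 TPM in shERCC6, against 1.95, 3.10 and 2.64 TPM in shCTRL. All 15 dNER libraries were above all 3 shCTRL libraries, by 10.5-fold in the shXPA mean. The log2 fold change was 2.33 (SE 0.261, q = 3.24e-07) in the mean of the lines, and the values by line were 3.17 in shXPA, 2.62 in shXPC, 1.13 in shERCC4, 2.23 in shERCC5 and 2.51 in shERCC6. In shERCC4 the rise of AKR1B10 rested on replicate 3, and without it the log2 fold change was 0.51 and not called.

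HMOX1, heme oxygenase 1, which breaks heme down to biliverdin, iron and carbon monoxide, had the lowest fitted log2 fold change of the 32 genes in the mean of the lines, and stood between 4.98% of the shCTRL mean in shERCC4 and 11.7% in shERCC5. HMOX1 had 1.90, 1.76 and 2.01 TPM in shXPA, 3.01, 3.76 and 2.97 TPM in shXPC, 1.18, 2.04 and 1.84 TPM in shERCC4, 4.24, 4.18 and 3.48 TPM in shERCC5 and 2.37, 3.21 and 2.58 TPM in shERCC6, against 28.7, 35.5 and 37.2 TPM in shCTRL. The dNER libraries lay between 1.18 and 4.24 TPM and the shCTRL libraries between 28.7 and 37.2. The log2 fold change was -3.47 (SE 0.137, q = 3.34e-12) in the mean of the lines, from -3.99 in shERCC4 to -2.94 in shERCC5, and it was called in each line under both scalings. HMOX1 lies on chromosome 22 (35380361 to 35394214, plus strand). Iron released from heme is stored in ferritin, of which only the light chain was called in the mean of the lines. FTL had 708, 694 and 716 TPM in shXPA, 498, 580.4 and 589 TPM in shXPC, 469, 692 and 587 TPM in shERCC4, 659.9, 659.8 and 739 TPM in shERCC5 and 762, 714 and 789 TPM in shERCC6, against 2222, 2206 and 2342 TPM in shCTRL. The ferritin light chain FTL was lower in all 5 lines, between 24.6% of the shCTRL mean in shXPC and 33.5% in shERCC6, with -1.79 (SE 0.0902, q = 4.83e-11). FTH1 had 6974, 7883 and 9743 TPM in shXPA, 11359, 10988 and 11874 TPM in shXPC, 5340.3, 8394 and 6659 TPM in shERCC4, 12426, 11999.7 and 11710.3 TPM in shERCC5 and 10814, 11921 and 12491 TPM in shERCC6, against 11736, 15411 and 16388 TPM in shCTRL. The heavy chain FTH1 was called in shXPA (-0.82) and shERCC4 (-1.10), and its other lines overlapped shCTRL. The shXPA call of FTH1 was lost with median-of-ratios scaling (-0.49). In the mean of the lines FTH1 had -0.56 (SE 0.135, q = 5.39e-04), under the fold threshold, which it passed without shXPA replicate 3 (-0.59), shERCC4 replicate 2 (-0.59) or shCTRL replicate 1 (-0.71). The control libraries of FTH1 spanned a wide range, with replicate 1 the lowest. FTH1 has many processed copies in the genome and shares exon sequence with BEST1 on the opposite strand, so its level is uncertain. Over the 30 genes other than FTL and FTH1, the summed share of the library was 0.277% in shXPA, 0.239% in shXPC, 0.314% in shERCC4, 0.282% in shERCC5 and 0.396% in shERCC6, against 0.621% in shCTRL.

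The 2 exporters of glutathione and glucuronide conjugates went opposite ways. ABCC3 had 42.0, 31.6 and 40.8 TPM in shXPA, 47.6, 50.5 and 43.2 TPM in shXPC, 90.6, 96.6 and 70.0 TPM in shERCC4, 85.2, 96.2 and 75.3 TPM in shERCC5 and 125, 119 and 125 TPM in shERCC6, against 338, 327 and 338 TPM in shCTRL. ABCC3 (MRP3) fell in every line, with -2.26 (SE 0.0993, q = 1.12e-11) in the mean of the lines and no overlap with shCTRL. ABCC2 had 35.8, 32.6 and 31.3 TPM in shXPA, 27.3, 35.5 and 28.4 TPM in shXPC, 19.0, 24.7 and 27.1 TPM in shERCC4, 29.05, 37.2 and 34.1 TPM in shERCC5 and 30.5, 32.6 and 26.8 TPM in shERCC6, against 20.4, 20.8 and 17.7 TPM in shCTRL. ABCC2 (MRP2) was mostly above the control, though a shERCC4 library lay within its range. It rose by 0.59 on the log2 scale in the mean of the lines (SE 0.109, q = 5.69e-05 from limma), and in shXPA, shXPC, shERCC5 and shERCC6 but not shERCC4 (0.24). This ABCC2 rise was close to the fold threshold. Its call in the mean of the lines was lost when any of 7 libraries was left out (0.52 to 0.58), in shXPC without shXPC replicate 2 (0.50) or shCTRL replicate 3 (0.54), and in shERCC6 without shERCC6 replicate 1 (0.58), shERCC6 replicate 2 (0.53) or shCTRL replicate 3 (0.53). With median-of-ratios scaling ABCC2 was higher in all 5 lines.

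OSGIN1, an oxidative stress-induced growth inhibitor, was near TXNRD1 in its fitted change. OSGIN1 had 2.14, 4.68 and 3.56 TPM in shXPA, 3.21, 3.98 and 3.49 TPM in shXPC, 2.35, 3.71 and 3.55 TPM in shERCC4, 3.60, 4.59 and 6.17 TPM in shERCC5 and 3.41, 4.36 and 3.74 TPM in shERCC6, against 28.1, 26.8 and 35.0 TPM in shCTRL. No dNER library was above 6.17 TPM and no shCTRL library below 26.8. The log2 fold change was -2.86 (SE 0.182, q = 6.48e-10), from -3.05 in shERCC4 to -2.55 in shERCC5. TRIM16L, a truncated copy of TRIM16 on chromosome 17, fell to between 11.5% of the shCTRL mean in shERCC4 and 17.4% in shXPC. TRIM16L had 13.2, 13.2 and 15.1 TPM in shXPA, 11.3, 19.6 and 17.1 TPM in shXPC, 9.51, 12.9 and 9.25 TPM in shERCC4, 17.04, 16.3 and 13.4 TPM in shERCC5 and 12.7, 14.3 and 13.8 TPM in shERCC6, against 91.4, 96.8 and 87.8 TPM in shCTRL. All dNER lines were within a narrow range, with -2.71 (SE 0.13, q = 2.94e-11) in their mean. TRIM16 itself, an E3 ubiquitin ligase, had a smaller fitted change. TRIM16 had 42.5, 44.0 and 40.3 TPM in shXPA, 50.9, 62.8 and 52.2 TPM in shXPC, 34.8, 43.9 and 43.1 TPM in shERCC4, 56.9, 58.6 and 56.5 TPM in shERCC5 and 49.9, 52.6 and 56.5 TPM in shERCC6, against 109, 103 and 100.1 TPM in shCTRL. Its change was -1.07 (SE 0.0788, q = 3.08e-09), and with median-of-ratios scaling it stayed lower in 3 of the 5 lines. Reads may be shared between the 2 copies. Their sum was 51.1 to 72.9 TPM in the dNER line means, against 196 TPM in shCTRL, and TRIM16 held 75.4% to 79.6% of it in dNER lines, against 53.1% in shCTRL. PIR, pirin, an iron-binding nuclear protein, averaged 37.2 ± 3.03 TPM in shXPA, 33.5 ± 0.888 in shXPC, 32.8 ± 6.43 in shERCC4, 34.8 ± 2.92 in shERCC5 and 49.0 ± 3.38 in shERCC6, against 65.9 ± 2.24 in shCTRL (SD, n = 3 each). PIR was lower in all lines but shERCC6, and only in shERCC4 with median-of-ratios scaling, where the mean of the lines (-0.47, against -0.83 as deposited) was not called.

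The median fall was smallest in shERCC6. Over the 16 genes lower in all 5 lines the median log2 fold change was -2.57 in shXPA, -2.64 in shXPC, -1.97 in shERCC4, -2.50 in shERCC5 and -1.40 in shERCC6. These 16 genes were picked by their calls in the same lines. The median of all genes was -0.24 in shERCC6 and lay between -0.42 and -0.29 in the other dNER lines. Line shERCC6 had the highest dNER mean for 9 of these 16 genes and the lowest for none. The matching shares of all genes tested were not counted. Each line was also compared with the mean of the other 4 dNER lines, a comparison that uses no shCTRL library. In shERCC6 8 of the 32 genes were higher and none lower, where 12.0% and 6.10% of all genes were: SLC7A11 (1.53), NQO1 (1.30), AKR1C2 (1.21), ME1 (1.12), GCLM (1.08), ABCC3 (1.03), SRXN1 (0.78) and PRDX1 (0.74). With quantile normalization SRXN1 and PRDX1 were not called in shERCC6. In shXPC 7 were lower and none higher, where 7.92% and 5.04% of all genes were: NQO1 (-1.21), AKR1C1 (-1.10), TXNRD1 (-1.08), SRXN1 (-0.80), EPHX1 (-0.76), ABCC3 (-0.69) and GCLM (-0.68). The GCLM difference in shXPC was lost without shXPC replicate 1 (-0.56), and with median-of-ratios scaling those of GCLM (-0.54) and ABCC3 (-0.55) were lost. Both were lost with quantile normalization too.

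In shXPA 4 genes were higher and 5 lower than in the other 4 lines, where 10.5% and 8.67% of all genes were. NFE2L2 (0.67), AKR1C1 (1.07), AKR1B10 (1.05) and EPHX1 (0.90) were higher, and ABCC3 (-1.08), SLC7A11 (-0.83), GCLM (-0.79), NQO1 (-0.73) and TXN (-0.61) were lower. The TXN difference was lost without shERCC4 replicate 2 (-0.58) and with quantile normalization. With that normalization 1 of 5 glutathione and cystine genes was gained as higher in shXPA, and 2 of 3 heme and iron genes as lower. In shERCC4 2 genes were higher and 4 lower, where 3.63% and 9.27% of all genes were. AKR1B10 (-1.51), FTH1 (-0.68), HMOX1 (-0.64) and GPX2 (-0.64) were lower there, and NQO1 (0.74) and CBR3 (0.62) higher. The balance of directions in shERCC4 turned with the scaling, to 4 higher and 3 lower with median-of-ratios scaling (4.77% and 8.12% of all genes) and 4 higher and 1 lower with quantile normalization (5.66% and 7.47%). GCLM (0.60) and TXNRD1 (0.65) were gained and GPX2 (-0.58) was lost with median-of-ratios scaling, and AKR1B10 alone stayed lower with quantile normalization. As deposited, all but AKR1B10 (-2.12 without shERCC4 replicate 3) were lost when a library was left out: FTH1 (-0.52) and HMOX1 (-0.46) without shERCC4 replicate 1, NQO1 (0.57) without shERCC4 replicate 2, GPX2 (-0.44) without shERCC4 replicate 3, and CBR3 without shERCC4 replicate 1 (0.46) or replicate 2 (0.49). CBR3 was also lost without shERCC5 replicate 3 (0.56) or shERCC6 replicate 1 (0.57), and GPX2 without shERCC4 replicate 2 (-0.64, q = 0.0710 from limma) or shERCC6 replicate 2 (-0.56). In shERCC5 1 gene was higher and 3 lower, where 4.41% and 1.86% of all genes were: CBR3 (-0.91), AKR1C1 (-0.77) and AKR1C2 (-0.70) were lower and HMOX1 (0.67) higher, with CBR3 lost without shERCC5 replicate 3 (-0.67, q = 0.0673 from limma). With quantile normalization the HMOX1 difference (0.58) was lost, which left none higher and 3 lower (4.04% and 2.93% of all genes).

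**Figure D5:**
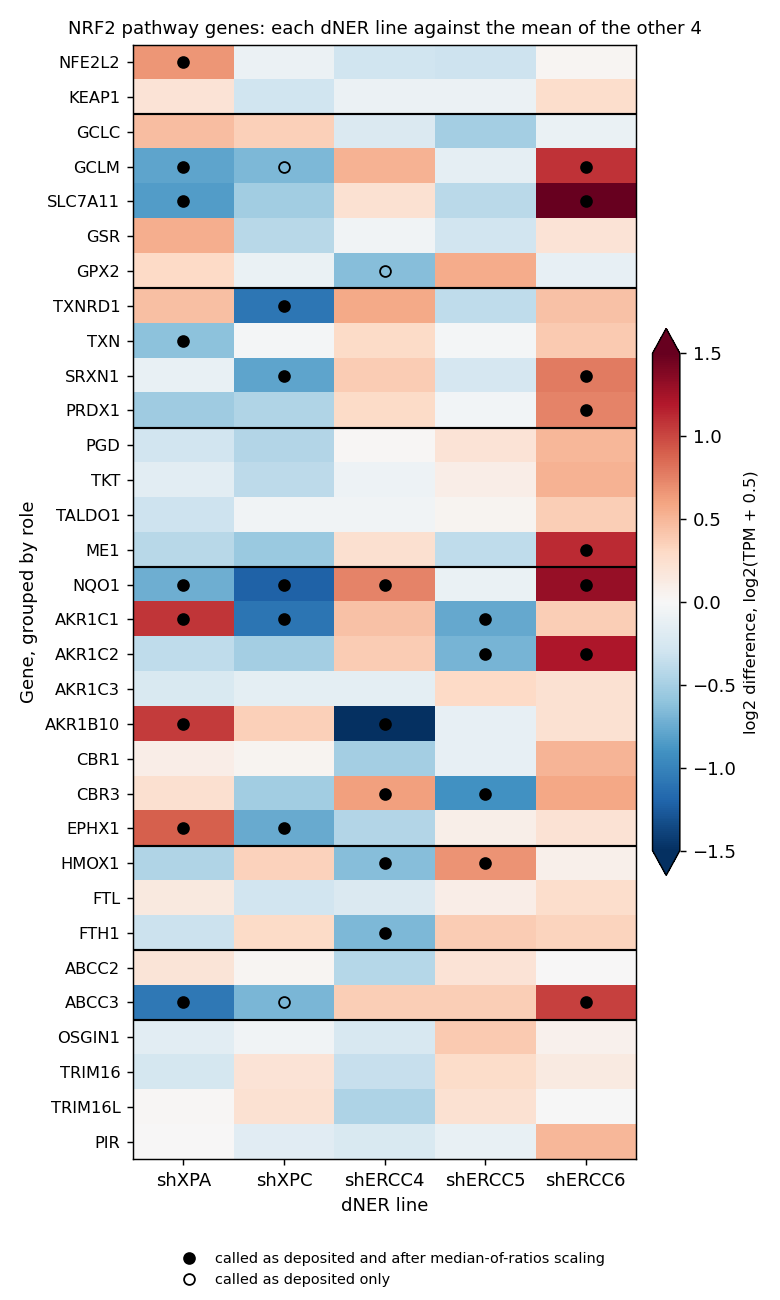
Log2 difference of each dNER line from the mean of the other 4, for all 32 genes grouped by role, on log2(TPM + 0.5), with colour for its size up to 1.5 either way. A filled dot marks a call that held after median-of-ratios scaling and an open dot one that did not. The 8 differences called in shERCC6 are above 0 (0.74 to 1.53) and the 7 called in shXPC are below 0 (-1.21 to -0.68).

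Other genes of the pathway, listed by function, were read in the mean of the 5 lines against shCTRL, with up to 4 named by the smallest q. In that comparison 28.6% of all genes were lower and 7.84% higher as deposited, with a median of -0.33, and 12.2% and 13.6% with median-of-ratios scaling. Of 15 tested genes that control NRF2, 4 were lower and none higher, a share close to that of all genes: SQSTM1 (-1.62), the p62 receptor that draws KEAP1 into autophagy, MAFG (-1.11), a small MAF partner, CREBBP (-0.70), a coactivator, and GSK3B (-0.74), a kinase that marks NRF2 for degradation. The median was -0.40, near that of all genes, and with median-of-ratios scaling SQSTM1 and MAFG stayed lower while CREBBP (-0.35) and GSK3B (-0.38) did not. BACH1, a repressor that competes with NRF2 at HMOX1, had 0.32 and was not called as deposited, but was higher with that scaling (0.67). NFE2L1 (0.62), a factor related to NRF2, was also higher with that scaling, and both were named after their values were seen. Both were uneven between lines as deposited. BACH1 libraries had 26.8 to 30.3 TPM in shXPA and 29.6 to 35.5 in shXPC, against 15.9 to 18.8 in shCTRL. Those of shERCC4 (13.97 to 23.3), shERCC5 (16.6 to 21.7) and shERCC6 (14.3 to 19.4) overlapped shCTRL. NFE2L1 averaged 299 TPM in shXPA, 245 in shXPC, 192 in shERCC4, 226 in shERCC5 and 180 in shERCC6, against 187 in shCTRL. Of 15 further NRF2 targets 10 were lower and 1 higher, with a median of -0.96. The lower ones included UGDH (-1.70), PTGR1 (-1.47) and ALDH3A1 (-1.35), and the 1 higher gene, named after its value was seen, was UGT1A6 (0.80). With median-of-ratios scaling 8 were lower and 1 higher. ALDH3A1 averaged 83.9 TPM in shXPA, 16.4 in shXPC, 44.5 in shERCC4, 22.8 in shERCC5 and 57.2 in shERCC6, against 98.0 in shCTRL. UGT1A6 was low, at 1.36 to 2.55 TPM in shCTRL libraries. Its libraries in shERCC4 (1.80 to 3.32) and shERCC6 (1.77 to 4.36) overlapped that range. Of 25 other glutathione and peroxide enzymes, 6 were lower and 3 higher, with a median of -0.16, above that of all genes. GPX8 (-1.45), MGST1 (-0.92) and SOD1 (-0.88) were lower, and SOD2 (1.44), the mitochondrial superoxide dismutase, was higher, as were GSTP1 (0.93) and PRDX5 (0.88), both named after their values were seen. With median-of-ratios scaling only GPX8 stayed lower and 5 were higher. Of 10 genes of cystine and iron handling, 2 were lower and none higher, with a median of -0.38, near that of all genes: ACO1 (-0.69), which binds iron-responsive mRNAs, and GGT1 (-0.97), which cleaves glutathione outside the cell. TFRC (-0.53), the transferrin receptor, and HMOX2 (-0.48), the constitutive heme oxygenase, were under the fold threshold, and with median-of-ratios scaling ACO1 was not called (-0.34) while SLC11A2, an iron importer named after its value was seen, was higher (0.79).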

How the data were processed

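The authors quantified RNA-seq reads with kallisto against hg38 (version 0.43.1 in the submitters' processing notes, another version in the methods) and deposited TPM per gene symbol for 18 libraries. The transcript annotation, the summing of transcripts to genes, the use of strand and any scaling between libraries are not given in the sources used here. Depth cannot be read from TPM, so neither intervals for counting error nor detection limits are given, and precision rests on the SD over 3 replicates. All 18 columns matched 1 library each by label, and no 2 libraries of a line held the same values.

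Of 22031 genes, the 16382 that reached 1 TPM in 3 or more libraries were fitted on log2(TPM + 0.5) with limma 3.58.1 in R 4.3.3, 1 coefficient per line, a mean-variance trend and 12 residual degrees of freedom, and the code was tested on simulated data. Fold changes on that scale understate those of low genes. Contrasts were each dNER line, or the mean of the 5, against shCTRL, and each line against the mean of the other 4. Thresholds, after the study's methods, were a q under 0.05 (Storey's method, lambda 0.5) and a fold above 1.5. Since Storey's method scales q by the estimated share of unchanged genes, q can lie below p. P values measure only the spread between replicates of these lines, and with 3 against 3 an exact permutation test of 1 gene cannot go below 0.1.

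The 32 genes, the further lists and the tests were chosen with earlier results of these data known. Values in every library are given for NFE2L2, KEAP1 and genes called the same way in all 5 lines, called higher in any line or called against the other 4 lines, and up to 4 genes of each further list are named by the smallest q. The values of some listed genes are not reported here, though the counts and medians of their lists include them. The alternatives tried were other pseudocounts (0.1 and 1), other filters (none, or 5 TPM), quantile normalization, median-of-ratios scaling, Benjamini-Hochberg adjustment, separate fits per line, a replicate block and leaving out each library. Gene positions and exon overlaps are from GENCODE 29 on GRCh38, and promoter windows from RefSeq on GRCh38.p14. Plots used matplotlib 3.10.9 under Python 3.11.15.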

Additional observations from a re-analysis of the deposited data

Results flagged for a closer look

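For the same 32 genes each dNER line was set against the other 4 by their mean, and the genes whose difference passed the test (limma, q under 0.05 with a fold above 1.5) are given here on the log2 scale. No group had more than 3 samples, so single libraries were not tested as outliers. The shares of all genes called, and the calls lost with another scaling or without a library, are given above. In shXPA NFE2L2 (0.67), AKR1C1 (1.07), AKR1B10 (1.05) and EPHX1 (0.90) were higher than in the other lines, and GCLM (-0.79), SLC7A11 (-0.83), TXN (-0.61), NQO1 (-0.73) and ABCC3 (-1.08) were lower. In shXPC GCLM (-0.68), TXNRD1 (-1.08), SRXN1 (-0.80), NQO1 (-1.21), AKR1C1 (-1.10), EPHX1 (-0.76) and ABCC3 (-0.69) were lower. In shERCC4 NQO1 (0.74) and CBR3 (0.62) were higher, and GPX2 (-0.64), AKR1B10 (-1.51), HMOX1 (-0.64) and FTH1 (-0.68) were lower. All of these shERCC4 differences but that of AKR1B10 were lost when a library was left out. In shERCC5 HMOX1 (0.67) was higher, and AKR1C1 (-0.77), AKR1C2 (-0.70) and CBR3 (-0.91) were lower. In shERCC6 GCLM (1.08), SLC7A11 (1.53), SRXN1 (0.78), PRDX1 (0.74), ME1 (1.12), NQO1 (1.30), AKR1C2 (1.21) and ABCC3 (1.03) were higher.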

How the results depend on the processing

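The counts of genes lower in each comparison with shCTRL stayed within 1.5 times their values under every alternative run. The count of genes higher in the mean of the 5 dNER lines and in shERCC6, 2 as reported, was 1 with a pseudocount of 1. In shERCC4 it was 1 as reported and 2 with median-of-ratios scaling or quantile normalization. When each library was left out in turn, the count higher ranged from 1 to 2 in the mean of the lines, shXPC and shERCC6, and from 0 to 1 in shERCC4. In shERCC4 against the other 4 lines 6 genes were called as reported and 3 with a pseudocount of 1. Same-numbered replicates of different lines showed no pairing (median correlation of deviations 0.00704 over 45 pairs, 1 above 0.1), and a replicate block changed no call, with 22 genes lower and 2 higher in the mean of the lines.

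The sign of genes near 0 against shCTRL turned under some settings, and no called value changed sign. With median-of-ratios scaling GSR was 0.10 in the mean of the lines, 0.12 in shERCC4 and 0.14 in shERCC6, TKT 0.32 in the mean, 0.16 in shXPA, 0.13 in shXPC and 0.32 in shERCC4, and CBR1 0.069 in the mean, 0.11 in shXPA and 0.22 in shXPC. AKR1C1 (0.28) and EPHX1 (0.075) in shXPA, FTH1 in shXPC (0.15) and shERCC5 (0.083), NFE2L2 in shERCC4 (0.42) and shERCC5 (0.32) and PGD in shERCC6 (0.13) also turned. With quantile normalization GSR was 0.086 in the mean, 0.12 in shERCC4 and 0.044 in shERCC6, TKT 0.082 in the mean, 0.0024 in shXPA and 0.16 in shERCC4, CBR1 0.030 in the mean, 0.16 in shXPA and 0.15 in shXPC, AKR1C1 0.26 and EPHX1 0.075 in shXPA, NFE2L2 0.41 in shERCC4 and 0.31 in shERCC5, and GPX2 0.013 in shERCC4. FTH1 in shERCC5 was 0 with quantile normalization, so its sign was lost there but did not turn. Over the fits that left out 1 library, GPX2 ranged from -0.048 to 0.28 in shXPC and from -0.25 to 0.26 in shERCC6, NFE2L2 from -0.20 to 0.21 in shERCC4 and from -0.054 to 0.018 in shERCC5, TKT from -0.22 to 0.085 in shERCC4 and from -0.035 to 0.090 in shERCC5, and CBR1 from -0.021 to 0.26 in shERCC6. The cause was not tested.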
